A study of Mus musculus with 12 samples.

Results

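A set of 8 genes of hepatic fatty acid oxidation were followed across the liver libraries of the study. They were taken by gene symbol from the deposited expression table, 8 genes of the 45777 it lists: *Ppara*, *Cpt1a*, *Cpt2*, *Acadm*, *Hadha*, *Ehhadh*, *Acot1* and *Pdk4*. Poly-A RNA was sequenced from the livers of 12 male C57BL/6 mice, 10 to 12 weeks old by the sample labels, in 4 groups of 3 mice. WT mice received vehicle or acetaminophen (APAP), a painkiller that injures the liver in overdose, and mice labelled Gα12KO (genotype Gα12-/-, lacking the G protein subunit encoded by *Gna12*) received the same. By the study's methods, APAP was injected once into the peritoneum at 300 mg/kg after an overnight fast, livers were taken 6 h later, and the WT mice were age-matched littermates. Whether the vehicle mice were fasted in the same way, and which liquid they received, is not given in the sources used here. The knockout is not described there as limited to a cell type.

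PPAR-alpha, the product of *Ppara*, is a nuclear receptor that senses fatty acids and, in the fasted liver, drives the genes that burn them. Long-chain fatty acids enter mitochondria through the carnitine shuttle (CPT1A at the outer membrane, CPT2 at the inner), are cut into acetyl-CoA by beta-oxidation, and in fasting much of that acetyl-CoA becomes ketone bodies. The receptor binds DNA with its partner RXR at repeats of the motif AGGTCA. The label under which the genes were grouped also names ketogenesis, but none of the 8 encodes a ketogenic enzyme; *Bdh1* and the ketone transporters were read from a wider list described further on.

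The sequence before the start site is printed for the 3 genes that passed the test across all livers and for *Acadm*, which holds a copy of AGGTCA without the repeat. Each run gives the 250 bases upstream of the RefSeq start site on the gene's own strand (build GRCm38.p6), in lower case, with capitals marking AGGTCA or its reverse complement. The windows are chr15:85735526-85735775 (+ strand) for *Ppara*, chr19:3323051-3323300 (+ strand) for *Cpt1a*, chr6:5496279-5496528 (- strand) for *Pdk4* and chr3:153944644-153944893 (- strand) for *Acadm*.
Ppara: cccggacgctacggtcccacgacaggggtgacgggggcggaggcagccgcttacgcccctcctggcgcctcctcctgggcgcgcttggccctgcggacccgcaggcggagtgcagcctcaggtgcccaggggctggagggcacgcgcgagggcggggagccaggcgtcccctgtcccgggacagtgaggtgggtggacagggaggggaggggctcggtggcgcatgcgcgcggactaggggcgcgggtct
Cpt1a: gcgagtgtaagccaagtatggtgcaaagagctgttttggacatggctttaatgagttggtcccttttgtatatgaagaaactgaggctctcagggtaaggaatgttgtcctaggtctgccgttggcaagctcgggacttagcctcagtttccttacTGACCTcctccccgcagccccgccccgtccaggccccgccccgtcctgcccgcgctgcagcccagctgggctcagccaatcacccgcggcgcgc
Pdk4: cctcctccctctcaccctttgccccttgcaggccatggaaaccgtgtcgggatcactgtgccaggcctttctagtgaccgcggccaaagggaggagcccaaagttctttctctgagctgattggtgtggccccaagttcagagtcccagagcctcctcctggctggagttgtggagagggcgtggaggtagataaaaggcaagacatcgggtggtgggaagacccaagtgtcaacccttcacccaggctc
Acadm: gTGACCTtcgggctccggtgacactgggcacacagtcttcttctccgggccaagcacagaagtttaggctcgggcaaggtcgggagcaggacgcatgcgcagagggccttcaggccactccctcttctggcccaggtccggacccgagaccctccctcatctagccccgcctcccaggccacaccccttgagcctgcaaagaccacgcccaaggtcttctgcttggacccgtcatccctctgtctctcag

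AGGTCA was found on the strand opposite to the gene's own in *Cpt1a*, 94 to 89 bases before the start, and in *Acadm*, 249 to 244 bases before it. That is 2 of the 8 members, against 14% of the 32851 mouse promoters in the RefSeq table, searched on both strands over the same length. A direct repeat of AGGTCA with 1 base between the copies occurred in 0.0335% of promoters and in 0 of the 8. The forkhead site GTAAACA (3.17% of promoters), the E-box CACGTG (6.02%) and the cAMP response element TGACGTCA (1.55%) were likewise found in 0 of the 8. These windows are short, and a match of letters describes the sequence without showing that a factor binds. The upstream windows of *Ppara* and *Cpt1a* lie inside the annotated gene spans, chromosome 15 from 85734910 to 85806851 and chromosome 19 from 3322326 to 3385735, because other transcripts start further upstream.

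Between 49737950 and 69566079 reads were counted on genes in each liver, and values are given as CPM, counts scaled to library size with TMM factors. In WT the APAP livers were all deeper (62593040 to 69566079 reads) than the vehicle livers (51555281 to 53487025). Under the KO label the depths overlapped (50422393 to 63817176 after APAP and 49737950 to 53220893 with vehicle). The part of depth in the results was not tested. Of the 8 genes the least counted, *Pdk4*, had 113 to 1483 reads per liver. *Gna12* was not lower under the KO label (mean 62.8 CPM with vehicle and 46 CPM after APAP, against 54.9 and 44.1 CPM in WT), so the libraries are named by their labels. All 10 hepatocyte markers had at least 27374 reads in every liver, and 0 of them passed the test between APAP and vehicle over all 12 livers. Markers of adipocytes, cells in which several of these genes are also active, summed to at most 0.477 CPM in any liver, and striated muscle markers to at most 1.01 CPM. Cholangiocyte markers summed to 2.54 to 7.71 CPM in the vehicle livers and 18 to 40.3 CPM in the APAP livers, and 2 of the 4 were higher after APAP. Over all 12 livers 14% of all genes tested were higher after APAP and 11.4% lower. Of the tested markers of other cells, 2 of 5 endothelial and 1 of 5 neutrophil genes were higher and 1 of 5 stellate genes lower. For Kupffer cells 0 of 8 and for erythroid cells 0 of 5 genes passed. The part of these cells in the results was not tested. A pair of WT livers stood apart. WT APAP replicate 1 held 238212 reads of the globin gene *Hba-a1*, against 2551 to 7713 in the other 11 livers, and its marker sums were also the highest of the 12 livers for neutrophils (125 CPM), stellate cells (349 CPM) and hepatocytes (158521 CPM). WT vehicle replicate 2 was low in PPAR-alpha target genes. Some of the results that rest on them are given with and without them. In bulk liver RNA, fewer cells of a type and less RNA per cell cannot be told apart.

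APAP was followed by lower *Ppara* and *Cpt1a* RNA and higher *Pdk4* RNA, while the enzymes of the beta-oxidation cycle itself did not pass the test. Over all 12 livers, with the genotype label as a covariate, *Ppara* was 2.29-fold lower, *Cpt1a* 1.57-fold lower and *Pdk4* 4.74-fold higher after APAP. Thus 1 of the 8 genes was higher and 2 were lower at an adjusted p-value under 0.05 (edgeR's quasi-likelihood test with Benjamini-Hochberg adjustment over the 16509 genes tested), where 14% of all genes tested were higher and 11.4% lower (25.4% in either direction). The 6 APAP livers did not overlap the 6 vehicle livers for these 3 genes, as was so for 12.5% of all genes tested. The median log2 difference was -0.15 over the 8 genes and 0.01 over all genes.

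**Figure D1:**
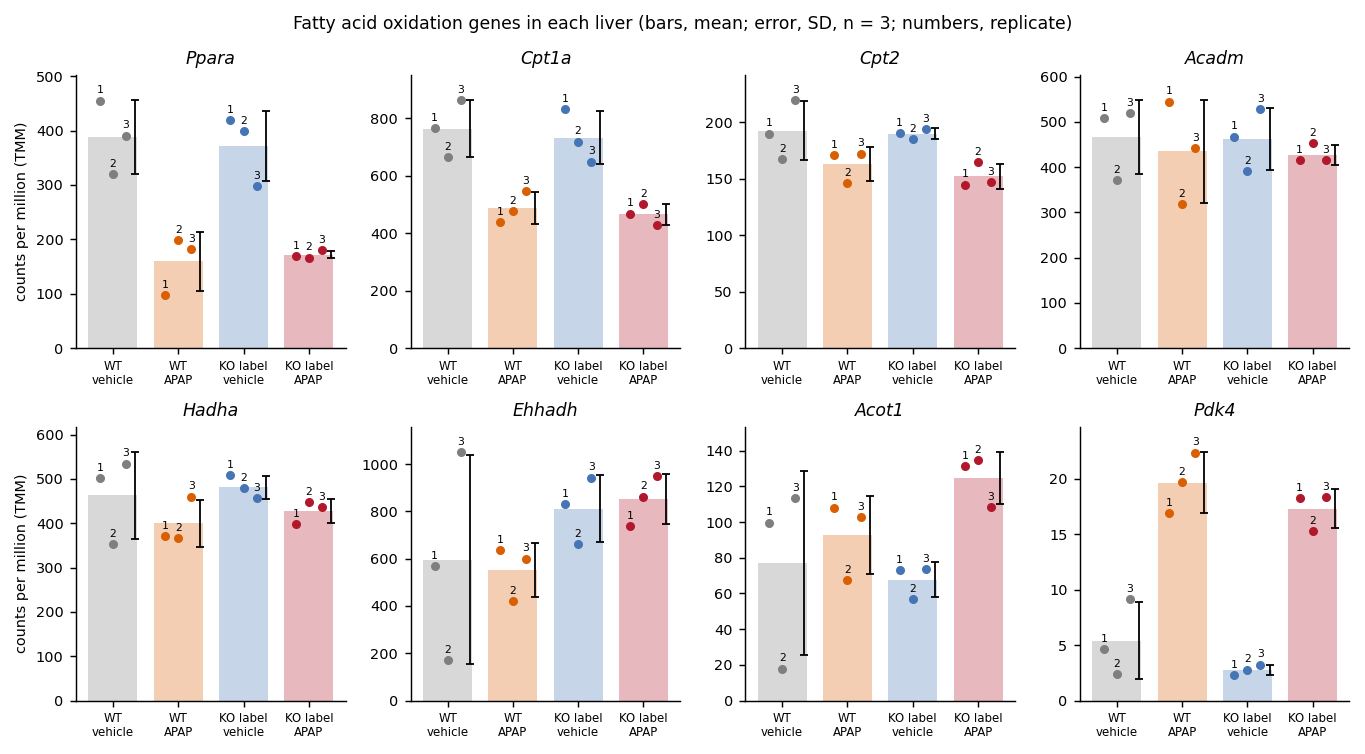
Expression of the 8 genes in each liver, in CPM after TMM scaling, with the y axis starting at 0; points are livers numbered by replicate, bars are group means and error bars are SD (n = 3). *Ppara* and *Cpt1a* sit lower and *Pdk4* higher in all 6 APAP livers than in any vehicle liver, and WT vehicle replicate 2 is far below its group for *Ehhadh* (169.6 CPM) and *Acot1* (17.8 CPM).

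*Ppara* (gene ID 19013), the receptor itself, was measured at 455, 319.9 and 391 CPM in the WT mice given vehicle (always in the order of replicates 1, 2 and 3) and at 96.9, 199 and 182 CPM in the WT mice given APAP. Under the KO label it was at 419, 398 and 298 CPM with vehicle and at 169.7, 166 and 179.8 CPM after APAP. Every APAP liver was below every vehicle liver, and the 3 APAP livers labelled KO lay close together (172 ± 6.97 CPM, SD, n = 3) while the WT APAP livers spread widely (159 ± 54.8 CPM, SD, n = 3). The difference over all 12 livers was -1.20 on the log2 scale (SE 0.17, adjusted p = 0.000396 by edgeR). Under the KO label alone it was -1.10 (SE 0.16, adjusted p = 0.00312). In WT alone a similar difference of -1.28 had a larger error (SE 0.30) and did not pass (adjusted p = 0.0806). The lowest value belonged to WT APAP replicate 1, the liver with the high globin count, and without that liver the WT difference was -1.03 and the difference over all livers -1.07. The part of blood RNA in that liver's value was not tested.

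*Cpt1a* (gene ID 12894), the rate-limiting entry step of the carnitine shuttle, was at 765, 664 and 863 CPM in the WT vehicle livers and at 438, 477 and 546 CPM after APAP. The KO-labelled livers held 831, 719 and 649 CPM with vehicle and 469, 501 and 428 CPM after APAP. The groups were separate under both labels and the within-group spread was small (group SDs of 36.2 to 99.6 CPM). *Cpt1a* fell by 0.65 on the log2 scale over all 12 livers (SE 0.11, adjusted p = 0.00123). The difference was -0.64 in both labels taken alone, passing under the KO label (SE 0.15, adjusted p = 0.0183) and not in WT (SE 0.21, adjusted p = 0.162). The KO-label call was not firm: leaving out 1 liver gave adjusted p-values up to 0.0706, and the call was lost without KO vehicle replicate 1, KO vehicle replicate 2, KO APAP replicate 1 or KO APAP replicate 3. It was also lost without TMM scaling and with limma on TPM values, so that 7 of 16 alternatives did not keep it.

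*Cpt2* (gene ID 12896), the inner-membrane partner of *Cpt1a*, moved far less. It was at 189.8, 167 and 219.6 CPM in the WT vehicle livers and 171, 146 and 172 CPM in the WT APAP livers, which overlapped. Under the KO label the vehicle livers (190.4, 185 and 194 CPM) all lay above the APAP livers (145, 165 and 147 CPM). Over all livers the log2 difference was -0.28 (SE 0.10), just outside the threshold (adjusted p = 0.0515), and it passed when WT vehicle replicate 2 (-0.32) or WT APAP replicate 1 (-0.29) was left out.

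*Acadm* and *Hadha* carry out mitochondrial beta-oxidation, as the medium-chain acyl-CoA dehydrogenase that opens the cycle and as the alpha subunit of the trifunctional protein that acts on long chains. *Acadm* (gene ID 11364) was at 508, 372 and 519.8 CPM in the WT vehicle livers, 545, 318 and 442 CPM in the WT APAP livers, and 391 to 528 CPM in the 6 livers labelled KO. The APAP livers lay within the vehicle range or beside it, and the log2 difference over all livers was -0.11 (SE 0.14, adjusted p = 0.633). *Hadha* (gene ID 97212) was at 502, 352 and 534 CPM in the WT vehicle livers, 372, 366 and 460.3 CPM in the WT APAP livers, 508, 479.6 and 457 CPM in the KO vehicle livers and 398, 448 and 436 CPM in the KO APAP livers. Its log2 difference was -0.19 (SE 0.12, adjusted p = 0.273), and the 3 livers of each group did not overlap under the KO label. *Hadha* overlaps *Garem2* on the other strand, and the strand setting of the counting is not given in the sources used here.

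*Ehhadh* (gene ID 74147), the peroxisomal bifunctional enzyme and a classical PPAR-alpha target, was spread widely among the untreated WT livers. The WT vehicle livers held 567, 169.6 and 1049.8 CPM, a coefficient of variation of 74%, whereas the KO vehicle livers held 831, 663 and 943 CPM. After APAP the values were 635, 422 and 601 CPM in WT and 739, 862 and 949 CPM under the KO label. APAP and vehicle livers overlapped under both labels, and the log2 difference over all livers was -0.02 with a wide error (SE 0.31, adjusted p = 0.970). In WT alone it was -0.10, moving to -0.55 without WT vehicle replicate 2 and to 0.57 without WT vehicle replicate 3. With vehicle, WT against the KO label was at -0.45. That difference became -0.01 without WT vehicle replicate 2 and -1.15 without WT vehicle replicate 3.

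*Acot1* (gene ID 26897) encodes a cytosolic thioesterase that frees fatty acids from CoA. It was at 99.7, 17.8 and 114 CPM in the WT vehicle livers and 108, 67.6 and 103 CPM in the WT APAP livers. Under the KO label it was at 73, 56.7 and 73.7 CPM with vehicle and 131, 135 and 108 CPM after APAP. The KO-labelled groups were separate and *Acot1* was 1.85-fold higher after APAP there (log2 difference 0.89, SE 0.15, adjusted p = 0.00612), a call lost when the spread was estimated over all 12 livers. In WT the groups overlapped (0.28, SE 0.58, adjusted p = 0.839), and the sign turned without WT vehicle replicate 2 (-0.20). The interaction of label and treatment was -0.61 (SE 0.67, adjusted p = 0.897), so a difference between the labels was not shown. Of the 100-base windows of the *Acot1* transcript, 21.9% occur in related thioesterase genes, 16.5% in *Acot2*, and its counts are uncertain to that extent; for the other 7 members the share was 0%.

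*Pdk4* (gene ID 27273) encodes a kinase that switches off the pyruvate dehydrogenase complex, sparing glucose carbon when fat is burned. It was the member furthest from its vehicle level. The WT vehicle livers held 4.64, 2.37 and 9.16 CPM and the WT APAP livers 16.9, 19.7 and 22.4 CPM. The KO vehicle livers held 2.32, 2.78 and 3.25 CPM and the KO APAP livers 18.3, 15.3 and 18.4 CPM. All 6 APAP livers lay above all 6 vehicle livers, and after APAP the 2 labels overlapped. *Pdk4* rose by 2.25 on the log2 scale over all livers (SE 0.28, adjusted p = 0.000143) and 6.26-fold under the KO label (log2 2.65, SE 0.17, adjusted p = 0.000109). The WT difference was 3.66-fold (log2 1.87, SE 0.44) and missed the threshold (adjusted p = 0.0811). Its SD among the WT vehicle livers was 3.46 CPM against 0.465 CPM among the KO vehicle livers.

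**Figure D2:**
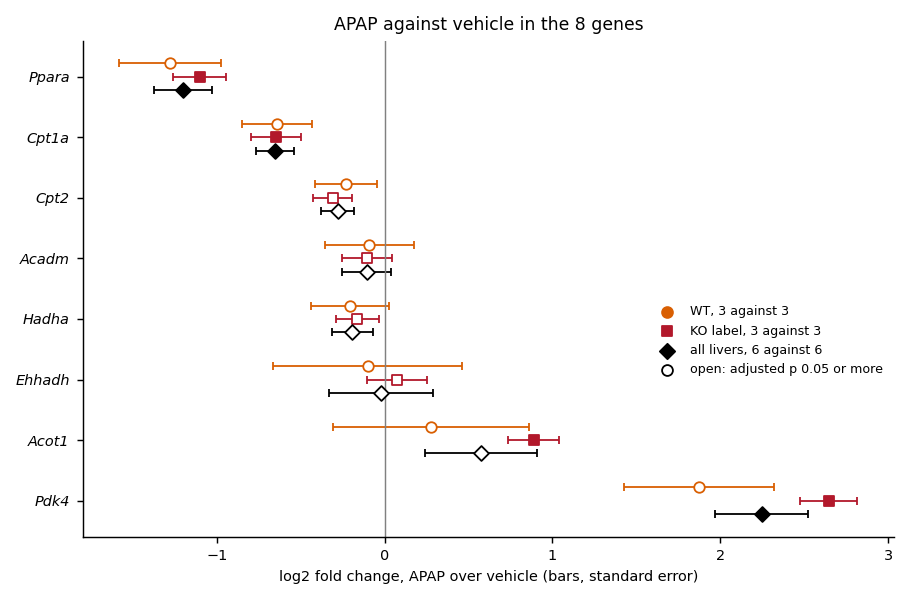
The log2 fold change of APAP over vehicle for the 8 genes in WT mice, under the KO label and over all 12 livers, with standard errors; filled symbols have an adjusted p-value under 0.05 in edgeR's test. The WT and KO-label points lie near each other for *Ppara* (-1.28 and -1.10) and *Cpt1a* (-0.64 in both), and the WT error bars are the longer ones for all 8 genes.

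By label, 4 of the 8 genes passed under the KO label, *Pdk4* and *Acot1* higher and *Ppara* and *Cpt1a* lower, where 13% of the 15665 genes tested were higher and 9.6% lower. In WT 0 of the 8 passed, where 1.62% of the 15693 genes tested were higher and 0.427% lower; *Ppara*, *Cpt1a* and *Pdk4* had an unadjusted p-value under 0.05, and the same 3 passed with DESeq2's Wald test and when all 12 livers shared 1 estimate of the spread, while limma called 0. Groups did not overlap for 3 genes in WT (24.9% of all genes) and for 6 genes under the KO label (42.8% of all genes). The direction was the same under both labels for 7 of the 8 genes, the exception being *Ehhadh*, which passed in neither. Without TMM scaling the split of all called genes moved from 255 higher and 67 lower to 158 and 15 in WT, from 2034 and 1504 to 2252 and 831 under the KO label, and from 2307 and 1880 to 2131 and 1013 over all livers; on quantile-normalized log2(TPM + 1) with limma it was 1944 and 2447 over all livers, and 2000 and 2455 with 0.1 in place of 1.

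Between the genotype labels no member passed the test, with errors that leave room for differences. With vehicle, 0 of the 8 passed between WT and the KO label (0 also at an unadjusted p-value under 0.05, and 0 with DESeq2 or limma), where 0.0262% of all genes did, and the groups overlapped for all 8 (14% of all genes did not overlap). The largest log2 difference was that of *Pdk4*, 0.96 higher in WT (SE 0.45, unadjusted p = 0.0652, adjusted p = 0.680, edgeR). After APAP 0 of the 8 passed, also with DESeq2 or limma, where 0.0309% of all genes did, and 1 had an unadjusted p-value under 0.05. That gene was *Ehhadh*, at 422 to 635 CPM in WT and 739 to 949 CPM under the KO label, a log2 difference of -0.61 (SE 0.23, unadjusted p = 0.0276, adjusted p = 0.958). *Acot1* was the other gene whose APAP groups did not overlap between labels, as was so for 8.73% of all genes tested (108, 67.6 and 103 CPM in WT against 131, 135 and 108 CPM under the KO label, just apart), with a log2 difference of -0.41 (SE 0.22, adjusted p = 0.958). The response to APAP was not shown to depend on the label for any member. The interaction passed for 0 of the 8 genes with edgeR, DESeq2 or limma, and for 0% of all genes with edgeR. Its estimates ran from -0.77 for *Pdk4* (SE 0.50, unadjusted p = 0.153) and -0.61 for *Acot1* to 0.08 for *Cpt2* (SE 0.20), and the errors leave room for label differences of some size in *Ehhadh* (SE 0.65) and *Acot1* (SE 0.67).

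The order of the 8 genes by level, read in TPM because levels of different genes can only be set side by side per transcript length, was led by *Acadm* and *Ehhadh* in all 4 groups. Mean levels of the leading gene were 358 TPM (*Acadm*) with vehicle and 301 TPM (*Acadm*) after APAP in WT, and 447 TPM (*Ehhadh*) and 544 TPM (*Ehhadh*) under the KO label. *Pdk4* was last in all groups, at 2.45, 8.72, 1.30 and 9.52 TPM in the same order. *Ppara* was the sixth of the 8 with vehicle (87.2 TPM in WT and 89.2 TPM under the KO label), where its range overlapped that of *Acot1*, and the seventh after APAP (37 and 47.9 TPM), below *Acot1* with no overlap. Within the upper part of the order, neighbouring genes overlapped between livers in WT after APAP from *Acadm* down to *Acot1*, whereas no neighbours overlapped among the 3 KO APAP livers.

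The spread among untreated WT mice had a shared low point and a shared high point. WT vehicle replicate 3 was lower than the mean of the other 2 livers of its group for 0 of the 8 members (median 0.32). It was lower for 0 of 20 other PPAR-alpha targets (median 0.71), against a mean that includes replicate 2. WT vehicle replicate 2 was below the mean of the other 2 livers of its group for all 8 members, by -2.57 (*Acot1*), -2.19 (*Ehhadh*), -1.45 (*Pdk4*), -0.56 (*Hadha*), -0.47 (*Acadm*), -0.40 (*Ppara*) and -0.29 (*Cpt1a* and *Cpt2*) on the log2 scale. The same liver was lower for 19 of 20 other PPAR-alpha targets, 9 of them by more than 1 log2 unit (median -0.85), against a median of 0 over all genes. *Cyp4a14*, a fatty acid omega-hydroxylase and classical target, was at 748 CPM there and at 3709.8 and 4523 CPM in the other WT vehicle livers. *Cyp4a10*, its neighbour in function, was at 982 CPM against 2682 and 3444 CPM, and *Vnn1*, a pantetheinase, at 19.6 CPM against 42.1 and 113 CPM. *Ppara* RNA itself was lower by the smaller amount of 0.40 log2 units, and mitochondrial beta-oxidation genes had a median of -0.17. Hepatocyte markers summed to 100711 CPM in that liver, the highest of its group, and neutrophil markers to 18 CPM against 1.16 CPM in the lowest. What sets this liver apart was not tested.

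**Figure D3:**
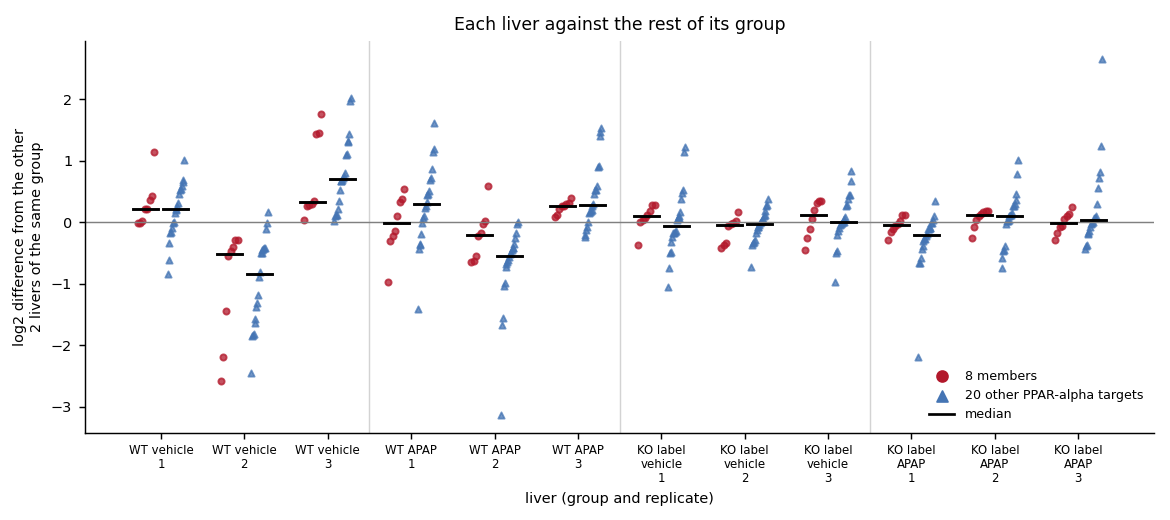
Log2 difference of each liver from the mean of the other 2 livers of its group, for the 8 members (circles) and 20 other PPAR-alpha targets (triangles); black lines are medians. WT vehicle replicate 2 has both medians below 0 (-0.51 and -0.85), and WT vehicle replicate 3 has both above 0 (0.32 and 0.71). WT APAP replicate 2 is the next lowest in the targets (-0.54) on this scale, CPM with TMM factors.

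WT vehicle replicate 2 was also the lowest of its group for all 8 members in the deposited TPM. The order of the WT APAP livers, in contrast, turned with the scaling. In CPM with TMM factors, WT APAP replicate 2 was lower than its group in 6 of the 8 members and in 19 of the 20 other targets (median -0.54), while WT APAP replicate 1, whose TMM factor was 0.7499, was above its group in *Acadm*, *Ehhadh*, *Acot1* and *Cpt2*. In TPM, WT APAP replicate 1 was the lowest of the 3 for all 8 members, for example at 14.8 TPM against 53.4 and 42.9 TPM for *Ppara* and at 263 TPM against 288 and 352 TPM for *Acadm*. No order among these 3 livers is therefore read from either scale. Among the KO-labelled livers the medians of the 8 members stayed between -0.04 and 0.12. With both WT livers that stand apart left out (chosen after seeing the data), 1 of the 8 genes, *Ppara*, passed in WT and *Ppara*, *Cpt1a*, *Cpt2* and *Pdk4* passed over all livers. Calls over all genes rose as well. They went from 255 higher and 67 lower to 435 and 196 in WT. Over all livers they went from 2307 and 1880 to 3110 and 2517.

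Calls among ketogenesis genes went in both directions, and the 2 that were higher were monocarboxylate transporters. Of 7 genes, 2 were higher and 2 lower over all 12 livers (median -0.12), where 14% of all genes tested were higher and 11.4% lower. The log2 difference, called or not, was positive only for these 2 transporters and negative for the other 5 genes. *Bdh1*, which makes beta-hydroxybutyrate, fell by 0.59 (SE 0.19, adjusted p = 0.0377, edgeR), a call lost in 9 of 12 fits with 1 liver left out. *Acat1*, a mitochondrial thiolase, was at -0.12 and did not pass. *Slc16a1*, the ketone and lactate transporter MCT1, was at 17.9 to 24.4 CPM in the 6 vehicle livers and 37.5 to 52.2 CPM in the 6 APAP livers, a 2.06-fold rise (log2 1.04, SE 0.11, adjusted p = 5.17e-05). *Slc16a6*, a transporter for exported ketone bodies, rose by 2.17 (SE 0.43, adjusted p = 0.00273) with overlapping livers. Without WT APAP replicate 1 its rise was 1.69.

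The further genes of mitochondrial beta-oxidation repeated the picture of *Acadm* and *Hadha*. Of 13 genes, 0 passed with edgeR over all livers (3 at an unadjusted p-value under 0.05, 0 with DESeq2, 1 or 3 with limma, and 3 without WT APAP replicate 1), and the log2 differences lay between -0.37 and 0.04 with a median of -0.08. *Acadl*, the long-chain dehydrogenase, was at 0.01, *Acadvl* at -0.06, *Acaa2* at -0.08 and *Hadhb*, the partner subunit of *Hadha*, at -0.17. In peroxisomal beta-oxidation 0 of 16 were higher and 5 lower (median -0.27), among them the dienoyl-CoA reductase *Decr2* (-0.60, adjusted p = 0.0127). The shares of all genes tested were 14% higher and 11.4% lower. The peroxisomal thiolase *Acaa1b* (0.34) did not pass.

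Among 14 genes of uptake, activation and the carnitine shuttle, 2 were higher and 1 lower (median -0.17), beside 14% and 11.4% of all genes tested. *Acsl4*, which activates arachidonic acid and other polyunsaturated fatty acids, rose 1.80-fold (log2 0.84, SE 0.18, adjusted p = 0.00501) and *Acsl5* by 0.50 (adjusted p = 0.0398, lost in 9 of 12 fits with 1 liver left out), while the acyl-CoA synthetase and transporter *Slc27a2* fell by 0.49 (adjusted p = 0.0142). *Acsl1* (-0.32) and the carnitine-acylcarnitine carrier *Slc25a20* (-0.15) did not pass. Of 11 acyl-CoA thioesterases beside *Acot1*, 2 were higher and 2 lower (median -0.06), against the same shares of all genes. The mitochondrial *Acot2* rose 3.13-fold, from 5.16 to 29.2 CPM across vehicle livers to 34.8 to 76.3 CPM across APAP livers (log2 1.65, SE 0.33, adjusted p = 0.00322), and *Acot9* rose by 1.26 (adjusted p = 0.00364). *Acot4* (-0.79, adjusted p = 0.0217) and *Acot12* (-0.47, adjusted p = 0.029) fell, and these calls were lost in 5 and 8 of 12 fits with 1 liver left out.

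**Figure D4:**
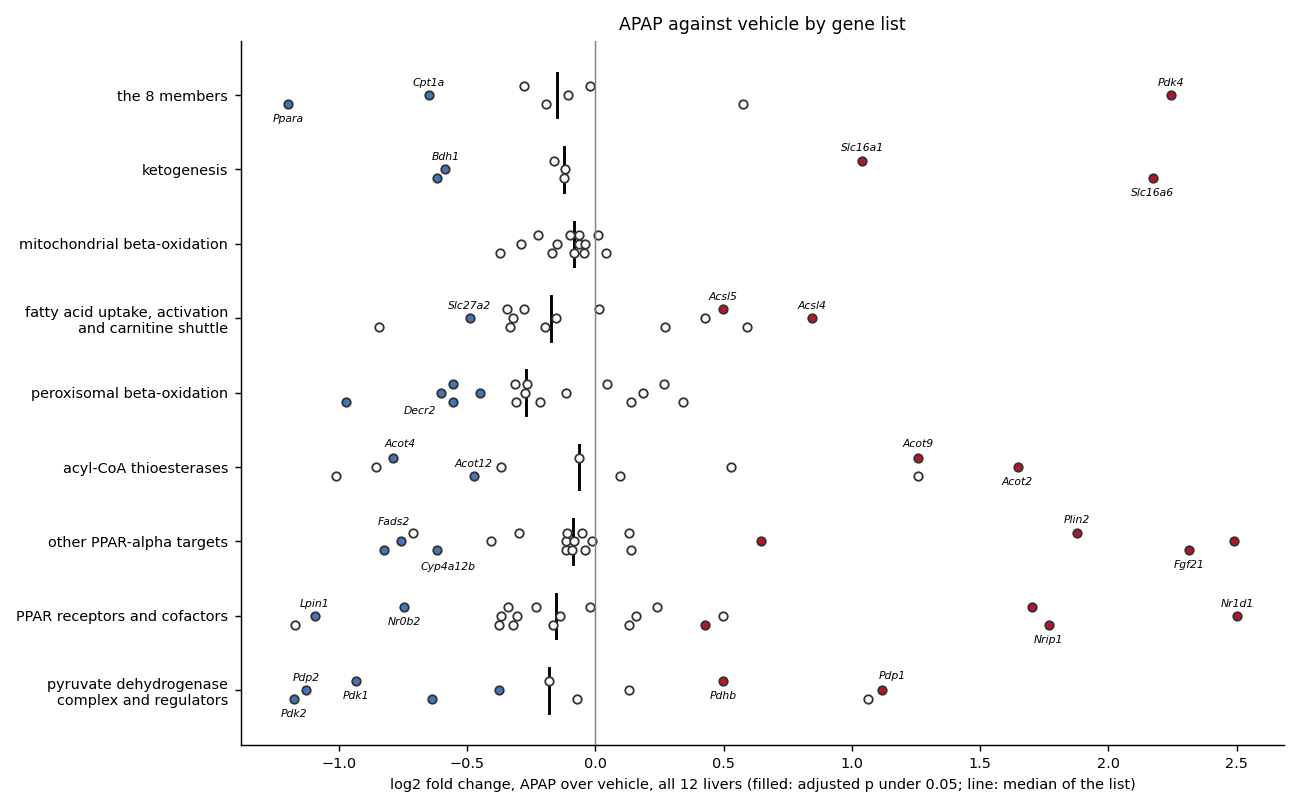
Log2 fold change of APAP over vehicle over all 12 livers for each gene of 9 lists; filled points have an adjusted p-value under 0.05 (red higher, blue lower), open points do not, and black lines are list medians. Mitochondrial beta-oxidation genes lie between -0.37 and 0.04 with no filled point. The member, thioesterase, cofactor and pyruvate dehydrogenase lists hold genes, filled or open, past 1 log2 unit in both directions.

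Calls among other PPAR-alpha targets went in both directions. Over all livers 4 of 20 were higher and 3 lower, where 14% of all genes tested were higher and 11.4% lower. The log2 difference, called or not, was negative for 14 of the 20 and positive for 6 (median -0.09). *Fgf21*, the fasting hormone of the liver, was 4.98-fold higher, at 3.19 to 16.4 CPM in the vehicle livers and 17.6 to 70.8 CPM in the APAP livers (log2 2.32, SE 0.36, adjusted p = 0.000672). *Plin2*, which coats lipid droplets, was 3.68-fold higher (log2 1.88, SE 0.32, adjusted p = 0.00115). The desaturase *Fads2* (-0.76, adjusted p = 0.0165) and *Cyp4a12b* (-0.62, adjusted p = 0.0231) fell, the second of these calls being lost in 5 of 12 fits with 1 liver left out. The classical targets *Cyp4a10* (-0.04), *Cyp4a14* (-0.11), *Vnn1* (-0.30) and *Angptl4* (0.14) did not pass, with standard errors of 0.20 to 0.35. Without WT vehicle replicate 2, *Cyp4a10*, *Cyp4a14* and *Vnn1* were at -0.20, -0.30 and -0.51. Without WT vehicle replicate 3 they were at 0.13, 0.10 and 0.05. The lower receptor RNA was accompanied by calls in both directions among the listed targets at 6 h. With both WT livers that stand apart left out, 9 of the 20 were called. In that fit the calls over all genes also rose, from 2307 higher and 1880 lower to 3110 and 2517.

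Of 20 PPAR receptors and cofactors, 4 were higher and 2 lower (median -0.15), where 14% of all genes tested were higher and 11.4% lower. *Nrip1*, a corepressor of nuclear receptors known as RIP140, was at 8.33 to 12.8 CPM in the vehicle livers and at 20.1 to 42.1 CPM in the APAP livers, 3.40-fold higher (log2 1.77, SE 0.17, adjusted p = 1.93e-05). *Nr1d1*, the heme-sensing repressor REV-ERB alpha of the circadian clock, was 5.66-fold higher (log2 2.50, SE 0.26, adjusted p = 3.6e-05). *Lpin1*, a coactivator of PPAR-alpha as well as a phosphatidate phosphatase, fell by 1.09 (adjusted p = 0.026), and *Nr0b2*, the corepressor SHP, by 0.75 (adjusted p = 0.0281); these 2 calls were lost in 3 and 6 of 12 fits with 1 liver left out. The partner receptor *Rxra* (-0.32, adjusted p = 0.125), the coactivator *Ppargc1a* (-0.37) and the corepressor *Ncor1* (-0.30) did not pass. Without WT APAP replicate 1, *Rxra* was at -0.20 and *Ncor1* at -0.19.

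The kinases of the pyruvate dehydrogenase complex moved in opposite directions. While *Pdk4* rose, *Pdk2* was 2.26-fold lower (log2 -1.17, SE 0.21, adjusted p = 0.00169) and *Pdk1* 1.91-fold lower (-0.93, SE 0.19, adjusted p = 0.00386). *Pdk2* was at 110.3, 63.8 and 103 CPM in the WT vehicle livers and 31.7, 64.7 and 37.5 CPM in the WT APAP livers, and at 80.4, 109.6 and 93.6 CPM against 39.2, 49.8 and 26.1 CPM under the KO label. The APAP livers were the lower ones except that WT APAP replicate 2 lay just above WT vehicle replicate 2. The opposing phosphatases also diverged, *Pdp1* 2.17-fold higher from a very low level (0.47 to 0.773 CPM with vehicle, adjusted p = 0.00158) and *Pdp2* 2.19-fold lower (adjusted p = 0.00115). Of the 11 listed genes of the complex and its regulators, 2 were higher, including the E1 subunit *Pdhb* (0.50, adjusted p = 0.00379), and 5 lower (median -0.18). The shares of all genes tested were 14% higher and 11.4% lower. In TPM, *Pdk4* remained the member of lowest level despite its rise.

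**Figure D5:**
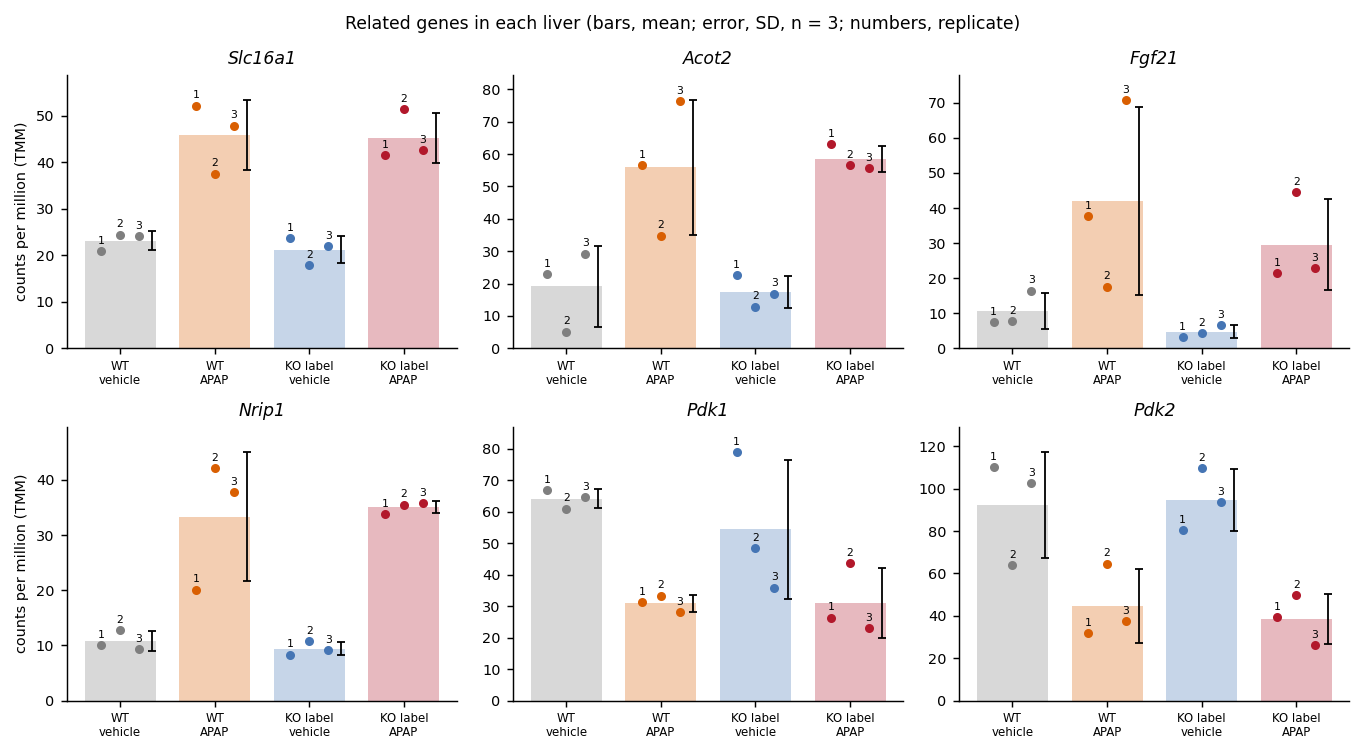
Expression of 6 related genes in each liver, in CPM after TMM scaling, with the y axis starting at 0; points are livers numbered by replicate, bars are group means and error bars are SD (n = 3). *Slc16a1*, *Acot2*, *Fgf21* and *Nrip1* are higher in all 6 APAP livers than in any vehicle liver, while for *Pdk1* and *Pdk2* single livers overlap.

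By label, calls in the wider lists were few in WT, where 2.05% of all genes tested passed in either direction, against 22.6% under the KO label. *Slc16a1* (log2 1.00, adjusted p = 0.0414), *Nrip1* (1.64, adjusted p = 0.038) and *Pdk1* (-1.05, adjusted p = 0.0201) passed there, and the other lists beside ketogenesis, cofactors and the pyruvate dehydrogenase genes had 0 calls. Those 3 lists held 1, 3 and 1 calls in WT, and each had 0 when WT vehicle replicate 1, WT vehicle replicate 3 or WT APAP replicate 3 was left out, and the ketogenesis call was also lost without WT vehicle replicate 2 or WT APAP replicate 1. Under the KO label 4 of 7 ketogenesis genes, 0 of 13 mitochondrial beta-oxidation genes, 2 of 14 uptake genes, 4 of 16 peroxisomal genes, 5 of 11 thioesterases, 6 of 20 other targets, 6 of 20 cofactors and 5 of 11 pyruvate dehydrogenase genes passed. These counts also rest on single livers. Uptake genes had 0 calls without any 1 of the 3 KO vehicle livers, peroxisomal genes 1 call without KO vehicle replicate 1, KO vehicle replicate 2 or KO APAP replicate 3, and thioesterases 1 call without KO vehicle replicate 2. With 1 liver left out, the calls ranged from 2 to 3 for ketogenesis, 0 to 2 for uptake, 1 to 6 for peroxisomal genes, 1 to 4 for thioesterases, 3 to 6 for other targets, 4 to 7 for cofactors and 2 to 5 for pyruvate dehydrogenase genes. Between the labels, with vehicle, after APAP or in the interaction, 0 genes of these lists passed with edgeR.

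The profiles most like each member over the 12 livers were found by the smallest root mean square difference of log2 CPM, each gene centred on its own mean, among 16508 other genes. For *Ppara* these were *Pdxk*, pyridoxal kinase (0.195 log2 units), and *Nr1i3*, the nuclear receptor CAR (0.2026). For *Cpt1a* they were *Pgap2* (0.108) and *Fam149b* (0.1103), and for *Cpt2* the short-chain dehydrogenase *Acads* (0.07529) and *Gkap1* (0.08486). The nearest to *Ehhadh* were *Cyp4a14* (0.2212) and the peroxisomal thiolase *Acaa1b* (0.3223), which shared its low value in WT vehicle replicate 2. *Acadm* lay nearest to *Ephx2* (0.0873) and *Dhrs4* (0.1143), and *Hadha* to *Maged1* (0.08584) and the peroxisomal enzyme *Hsd17b4* (0.09124). *Pdk4* was nearest to the chemokine scavenger *Ackr2* (0.312) and the histone gene *H2c8* (0.4699). *Acot1* was nearest to the pseudogene *Rpl3-ps1* (0.3607) and *Pcyox1l* (0.3711). A small difference is easier to reach for a gene that varies little, so these values describe likeness within each gene and are not ranked between genes.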

How the data were processed

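Liver RNA of 12 mice was measured, 3 in each of 4 groups taken from the sample titles. The authors deposited whole-number read counts per gene without normalization, together with FPKM and TPM values that the authors scaled by transcript length and library size. Libraries were stranded TruSeq mRNA. The submitters' processing notes name FastQC 0.11.7, Trimmomatic 0.38, HISAT2 2.1.0, Bowtie2 2.3.4.1 and StringTie 2.1.3b on mm10 (GRCm38), without their roles. The 8 genes and the gene lists were chosen with earlier results of these data known. The table held 45777 genes, of which 45679 matched the RefSeq table, and 0 sample columns were left unassigned. No library was a copy of another (0 identical columns).

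Counts were filtered with filterByExpr, given TMM factors and analysed in R 4.3.3 by edgeR 4.0.16 (quasi-likelihood F-test). In each comparison p-values were adjusted by Benjamini-Hochberg across all genes that the filter kept, with calls made under 0.05. Each comparison of 2 groups used only its 6 livers. The comparison over all 12 livers had the genotype label as a covariate, and the interaction was tested on all 12. A standard error is the log2 fold change divided by the root of its F statistic. Depth ranged from 49737950 to 69566079 counts per liver. The pipeline was tested on simulated data. Alternatives were DESeq2 size factors, total counts without TMM, the Wald test of DESeq2 1.42.0, edgeR's legacy argument switched, no filter, at least 10 counts in every sample, limma 3.58.1 on TPM values (log2 after adding 1 or 0.1, then quantile-normalized), the replicate number as a block, all 12 livers in one fit, no genotype covariate, and each liver left out. FPKM values were not used.

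Named genes were the 8 members in all comparisons, a preset choice from the wider lists whatever it did, at most 2 genes per list and direction with the smallest p-value among those past the threshold over all 12 livers, and the 2 nearest profiles of each member. Some genes that this rule names are not reported here. Other genes that appear were chosen after their values were seen.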

Additional observations from a re-analysis of the deposited data

How the results depend on the processing

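Over all 12 livers, *Ppara*, *Cpt1a* and *Pdk4* kept their direction and their call under all 23 alternatives, with log2 differences of -1.27 to -1.07, -0.69 to -0.60 and 1.75 to 2.57. The number of the 8 genes called was 3 to 4 there, 3 to 5 under the KO label (4 as reported), and 0 in both genotype comparisons and the interaction under every alternative run. In WT, where 0 were called, 3 were called with DESeq2's Wald test, 3 with all 12 livers in one fit and 1 (*Ppara*) with both WT livers that stand apart left out. With 1 liver left out at a time, 0 to 0 members passed in WT, 3 to 4 under the KO label and 3 to 4 over all livers. No member that passed changed sign.

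Counts over all genes moved more. In WT, 255 higher and 67 lower became 877 and 536 with DESeq2, 968 and 555 with all 12 livers in one fit, 435 and 196 without the pair of WT livers, and 158 and 15 without TMM; with 1 liver left out they were 41 to 316 and 0 to 126, the smallest being 41 higher without WT vehicle replicate 3, 42 without WT vehicle replicate 1 and 67 without WT APAP replicate 3. Under the KO label, 2034 and 1504 became 1405 and 844 with all 12 livers in one fit, 2252 and 831 without TMM, 1261 and 734 without KO vehicle replicate 2, 1320 and 751 without KO APAP replicate 3, 946 lower without KO vehicle replicate 1 and 937 lower without KO vehicle replicate 3. DESeq2 called 62 higher and 75 lower between labels with vehicle (2 and 2 with edgeR), 21 and 8 after APAP (2 and 3), and 7 and 2 for the interaction (0 and 0). Scaling by total counts shifted the median of all genes from -0.02 to 0.10 under the KO label, from 0.02 to -0.22 between labels after APAP and from 0.02 to -0.14 for the interaction. In lists over all livers, the calls ranged from 2 to 4 for ketogenesis (4 as reported), 0 to 3 for mitochondrial beta-oxidation (0), 2 to 5 for uptake (3), 3 to 8 for peroxisomal genes (5), 2 to 7 for thioesterases (4), 4 to 9 for other targets (7), 4 to 8 for cofactors (6) and 5 to 7 for pyruvate dehydrogenase genes (7). Over all livers, calls among all genes went from 2307 higher and 1880 lower to 3110 and 2517 without the pair of WT livers. The cause of these shifts was not tested.

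The replicate numbers did not pair the livers: of 18 pairs of livers with the same number, 1 had a correlation of deviations above 0.1 (range -0.264 to 0.107). With the replicate number as a block, the WT counts over all genes were 61 and 1, those under the KO label 1596 and 1165, and 0, 4 and 3 of the 8 genes passed in WT, under the KO label and over all livers. The ketogenesis, cofactor and pyruvate dehydrogenase lists, with 1, 3 and 1 calls in WT, had 0 each with the block and 0, 1 and 0 without TMM. Whether depth limits the WT comparison was not tested.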
